A study of Mus musculus with 24 samples.

Results

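The comparison described here is that of liver after a high fat diet with liver after chow in control mice, and it rests on 6 of the 24 libraries of the series. They were chosen by their labels: 3 libraries of AlbCre+ wild type liver on chow and 3 of the same genotype on the high fat diet, each diet given for 16 weeks. Both groups were C57BL/6J mice that carried AlbCre, a transgene in which the albumin promoter drives Cre recombinase in hepatocytes, so the controls share Cre with the knockdown groups. The series as a whole measured liver RNA by sequencing in 8 groups that crossed these 2 diets with 4 genotypes, 3 libraries in each group. The other genotypes used below are AlbCre+ Jnk1flox/flox and AlbCre+ Jnk2flox/flox (called Jnk1 and Jnk2 liver here), in which Cre acts on Mapk8 or Mapk9, the genes of the stress-activated kinases JNK1 and JNK2. The sources used here do not give sex, age at collection, the time of day of collection or the makeup of the diets. Nothing in the labels states whether replicates came from separate animals. The p-values thus measure the spread between libraries of a group, pooled over all 24 libraries of the series, and this spread may be technical.

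The liver stores and burns fat, makes glucose between meals, disposes of amino nitrogen through the urea cycle and makes most plasma proteins. Insulin raises the transcription of the lipogenic regulator SREBP-1c and lowers that of the gluconeogenic enzymes, and the nuclear receptor PPARalpha drives the genes of fatty acid oxidation, above all in fasting. Resident macrophages called Kupffer cells line the sinusoids, and hepatocytes answer cytokines of the IL-6 and IL-1 families with acute phase proteins and answer interferons with antiviral genes. Long-term feeding of a high fat diet is widely used to study fatty liver and insulin resistance.

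The values were FPKM (fragments relative to transcript length and library total), so the absolute depth is unknown. The sum of FPKM in the 6 libraries ranged from 634849 to 696265, and the relative depth, read from the smallest steps between low values, from 0.32 of the deepest library (chow 3) to 1 (chow 1). Pearson correlations of log2(FPKM + 1) ranged from 0.957 to 0.970 within a diet and from 0.938 to 0.959 between diets. The 18 hepatocyte markers summed to 32834 to 56917 FPKM on chow and to 46973 to 56279 FPKM on high fat, the lowest sum being that of chow 1, where albumin was listed at 0 through a failed estimate. Members of lists for other cell types were measured as well. T, NK and B cell markers summed to 7.17 to 8.27 FPKM on chow and 8.27 to 11.5 on high fat. Neutrophil markers summed to 19.0 to 30.3 on chow and 30.3 to 98.3 on high fat, where high fat 2 was the high library. By limma's test 0 of 4 tested neutrophil markers and 0 of 2 tested T, NK and B cell markers were called, against 16.3% of all loci.

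A pair of library features moved with the groups or within them. Transcripts of 14 exocrine pancreas genes summed to 1154 FPKM in chow 3 and to 74.7 FPKM in high fat 1, against 0.607 to 1.30 FPKM in the other 4 libraries, and 0 of the 13 tested pancreas markers were called, by limma's test. A clock score, the first principal component of 33 circadian genes over all 24 libraries (43.7% of their variance), was -4.93, -4.07 and -6.21 in chow 1, 2 and 3 and -3.25, -1.22 and 1.10 in high fat 1, 2 and 3. The scores of the diets did not overlap, so the results were also computed with this score as a covariate and without both libraries with pancreas transcripts. The latter fit kept 2 libraries per diet. Fits with fewer libraries have less power, so a lost call is not by itself a smaller change.

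**Figure D1:**
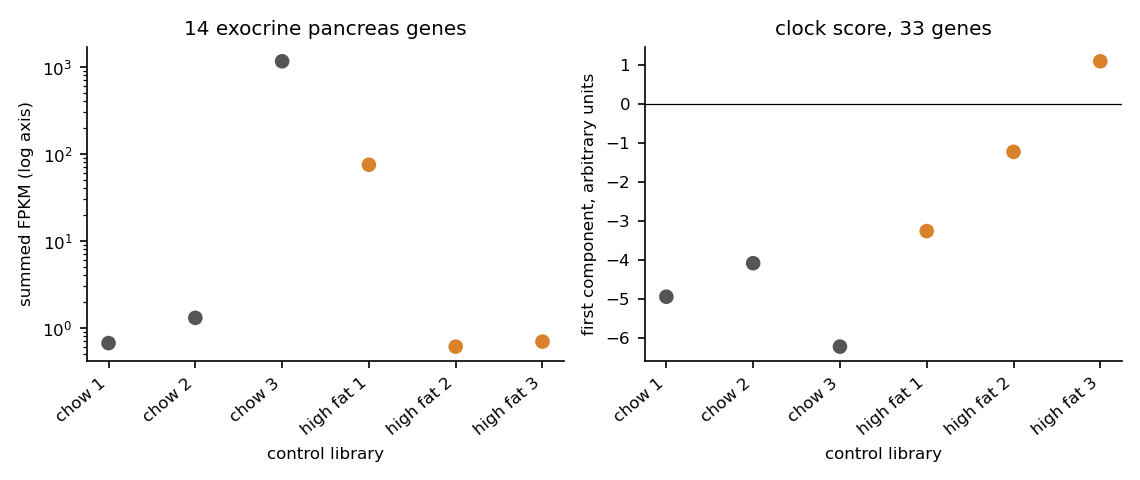
Left, summed FPKM of 14 exocrine pancreas genes (log axis) in each control library; right, the clock score of 33 circadian genes in the same libraries, in arbitrary units. Each point is 1 library; chow 3 (1154 FPKM) and high fat 1 (74.7 FPKM) stand above the other 4 on the left, and the 3 high fat libraries lie above the 3 chow libraries on the right.

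Across the genome, 1717 of 10561 loci tested were called, 16.3%, with 1063 higher (10.1%) and 654 lower (6.19%) on the high fat diet. Called means that limma's moderated test, run over all loci with a mean of at least 1 FPKM, gave a p under 0.05 after Benjamini-Hochberg adjustment. Changes are differences of log2(FPKM + 1), high fat minus chow, ± SE with 3 libraries per diet, and this scale understates the change of low genes. The median change of all loci was 0.04, the median size of a called change was 0.55, and 143 loci were higher and 83 lower by at least 1. The libraries of the diets did not overlap at 1664 of the 1717 called loci, and at 3657 of all 10561 (34.6%). The balance between directions depended on scaling: size factors gave 848 higher against 1058 lower, quantile normalization gave 952 against 1072, and removal of the length trend gave 998 against 1126. The count of calls also moved with single libraries: it was 1127 without chow 2, 1050 without chow 3 and 1106 without high fat 2, and it was 831 with the clock score as a covariate and 682 without both libraries with pancreas transcripts. A fit of only the control groups, which does not share the spread of the other groups, called 1159 loci. Of the 1717 loci, 700 were called in all 6 fits that left out 1 control library.

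**Figure D2:**
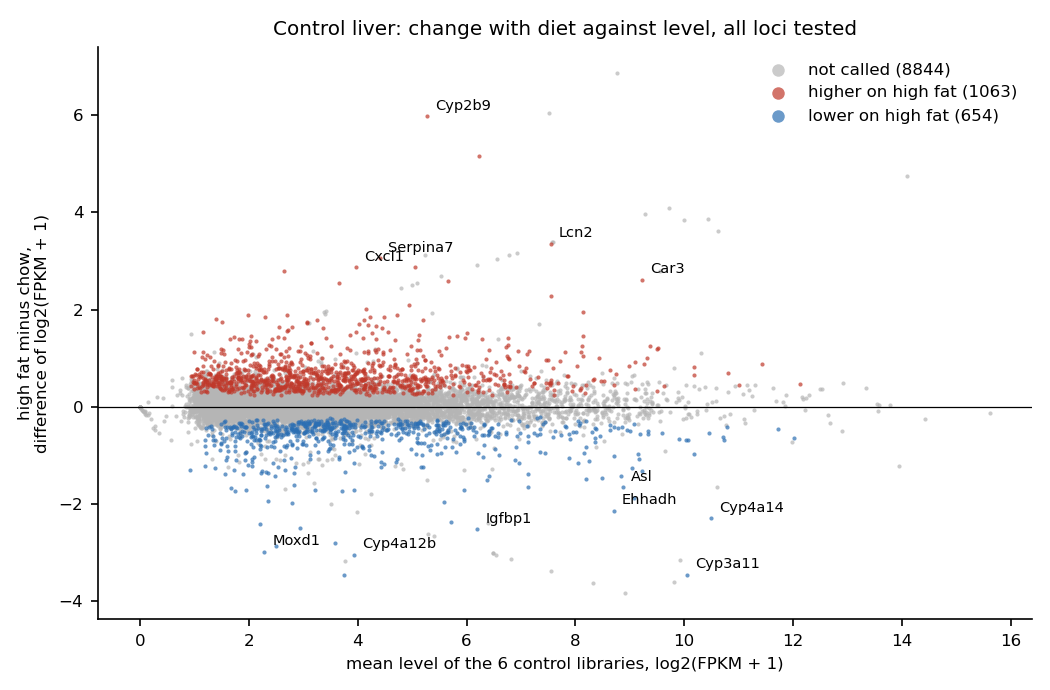
Difference of log2(FPKM + 1) between high fat and chow control liver (vertical) against the mean level of the 6 libraries (horizontal), 1 point per locus tested; red points are the 1063 loci called higher and blue points the 654 called lower. Cyp2b9 (5.97) stands highest and Cyp3a11 (-3.45) lowest among the labelled genes.

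The largest rises were in a cytochrome, in secreted defence and carrier proteins and in a carbonic anhydrase. Cyp2b9 (chr7:26173409-26210660, mm10), a cytochrome P450 with higher expression in female than in male mouse liver, was at 0.450, 0.129 and 0.0683 FPKM on chow and at 77.7, 79.6 and 67.6 FPKM on high fat. All 3 high fat libraries stood far above all 3 chow libraries, a change of 5.97 ± 0.65 (adjusted p = 1.37e-05, limma). Lcn2 (chr2:32384637-32387739), the iron-carrier-binding protein lipocalin-2, was at 22.4, 63.1 and 22.5 FPKM on chow and at 323, 359 and 326 FPKM on high fat. Chow 2 was the high chow library, the diets did not overlap, and the change was 3.36 ± 0.65 (adjusted p = 0.00195, limma). Serpina7, which encodes thyroxine-binding globulin, was at 3.87, 3.63 and 3.09 FPKM on chow and at 37.9, 40.4 and 31.6 FPKM on high fat, a change of 3.05 ± 0.38 (adjusted p = 3.61e-05, limma). Car3, carbonic anhydrase 3, was at 287, 117 and 127 FPKM on chow and at 1243, 785 and 1025 FPKM on high fat, a change of 2.62 ± 0.60 (adjusted p = 0.00569, limma), with an adjusted p of 0.0622 with the clock covariate and of 0.0792 without both libraries with pancreas transcripts. Car3 is also abundant in adipocytes, and the 13 adipocyte markers, which include Car3, summed to 157 to 325 FPKM on chow and to 819 to 1310 FPKM on high fat. Most of each sum was Car3 itself (1243 of 1310 FPKM in high fat 1 and 785 of 819 FPKM in high fat 2). The rise of the sum thus restates that of Car3. The defining adipocyte genes Adipoq and Plin1 were at or below 1.11 FPKM in all 6 libraries, Plin1 was at 0 in high fat 2, and Fabp4 was at 12.3 to 30.4 FPKM. Cfd, the adipocyte product adipsin, was at 2.59, 2.49 and 4.90 FPKM on chow and at 19.4, 8.20 and 19.5 FPKM on high fat. Its diets did not overlap, as at 34.6% of all loci, but Cfd was not called. The part of adipocyte RNA in the change of Car3 was not tested. Prtn3, the neutrophil serine protease proteinase 3, rose by 2.80, Lgals1, the lectin galectin-1, by 2.09, and Leap2, a secreted peptide that opposes ghrelin, by 1.95. The call of Leap2 ended with the clock covariate (adjusted p = 0.0824, limma) and without both libraries with pancreas transcripts (adjusted p = 0.0818).

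Among the largest falls were those of the main drug-metabolising cytochrome, of an omega-hydroxylase and of the insulin-like growth factor binding protein Igfbp1. Cyp3a11 (chr5:145854607-145879854, mm10), the chief cytochrome P450 for drugs and steroids in mouse liver, was at 2184, 1884 and 1764 FPKM on chow and at 246, 133 and 166 FPKM on high fat. All 3 high fat libraries were far below all 3 chow libraries, and the change was -3.45 ± 0.29 (adjusted p = 5.86e-07, limma). Cyp4a12b, an omega-hydroxylase of fatty acids with male-biased expression, was at 24.7, 25.6 and 27.7 FPKM on chow and at 1.97, 2.61 and 2.26 FPKM on high fat, a change of -3.04 ± 0.37 (adjusted p = 3.00e-05). Its near-identical copy Cyp4a12a changed by -1.14, and fragments shared between the copies may have been split either way. Igfbp1, a liver-secreted binding protein that insulin lowers, was at 121, 135 and 111 FPKM on chow and at 14.9, 18.1 and 31.9 FPKM on high fat. The diets did not overlap, high fat 3 was the highest of its group, and the change was -2.51 ± 0.54 (adjusted p = 0.00396, limma). Igfbp2, another such binding protein, was at 841, 822 and 877 FPKM on chow and at 192, 212 and 299 FPKM on high fat, a change of -1.88 ± 0.30 (adjusted p = 4.21e-04). Moxd1, a monooxygenase-like protein, was at 6.00 to 9.53 FPKM on chow and at most 0.247 FPKM on high fat, with high fat 2 listed at 0. Agxt2l1, now named Etnppl, an ethanolamine phosphate lyase, fell by 2.36, and the transcripts E030018B13Rik and Gm15441 fell by 2.86 and 2.50.

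**Figure D3:**
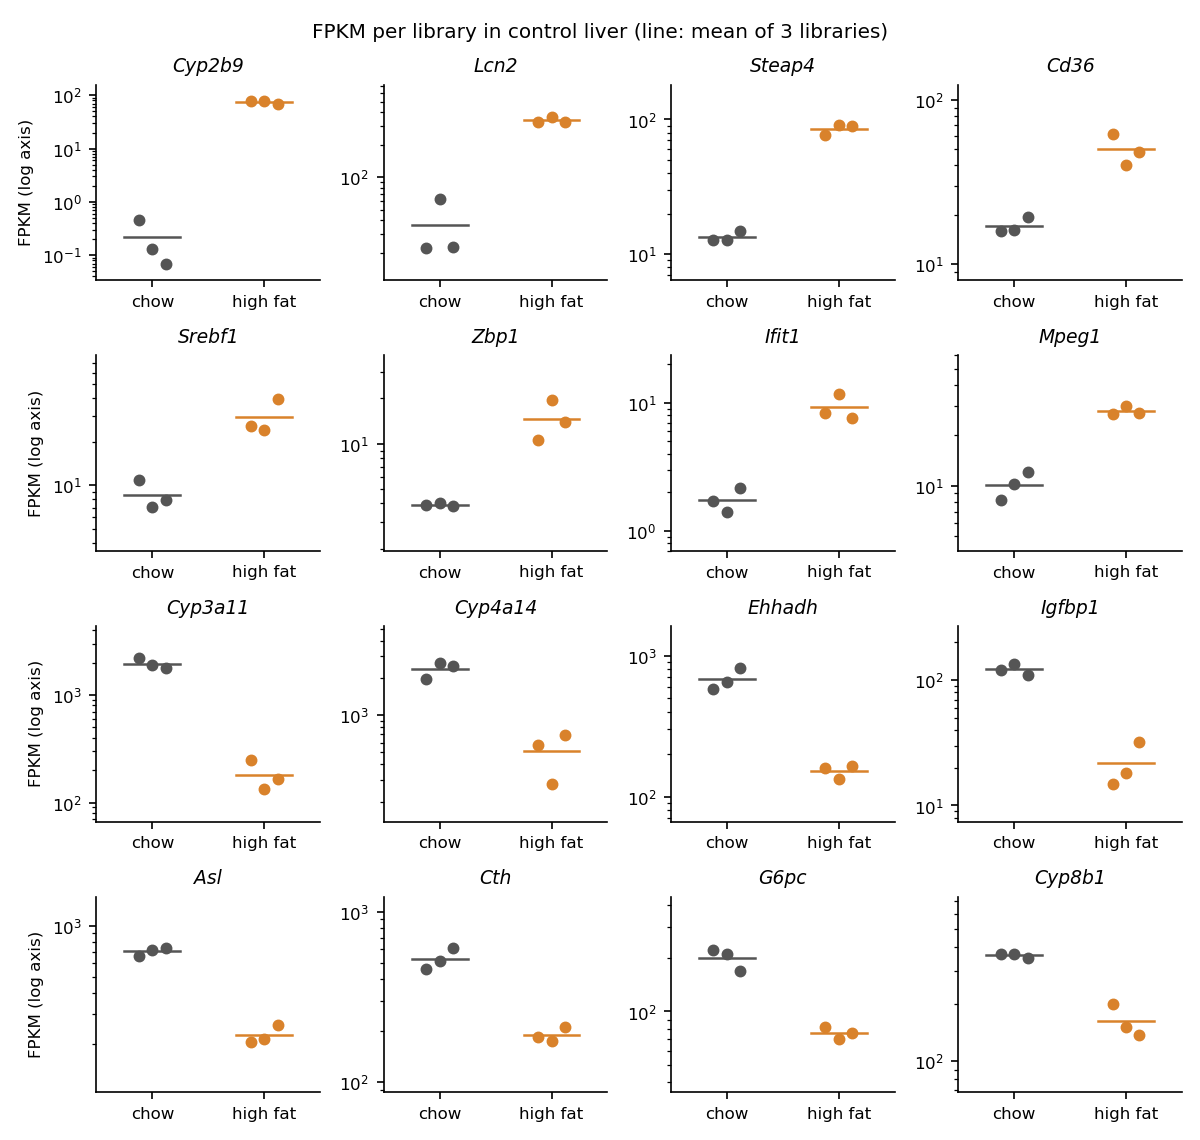
FPKM of 16 genes in each control library (log axes, a separate range for each gene); each point is 1 library and the line is the mean of 3. The 3 chow and the 3 high fat points of each of these genes do not overlap; Cyp2b9 spans the widest range, from 0.0683 to 79.6 FPKM.

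Interferon-stimulated genes rose together. Of 34 genes on the list 29 passed the filter on the mean of all 24 libraries, and 26 of the 29 were called higher and 0 lower, with a median change of 1.01, against 10.1% higher and a median of 0.04 for all loci. Ifit1, an RNA-binding antiviral protein, was at 1.71, 1.39 and 2.16 FPKM on chow and at 8.36, 11.7 and 7.63 FPKM on high fat, a change of 1.88 ± 0.21 (adjusted p = 1.64e-05, limma). The lowest high fat library stood above the highest chow library. Zbp1, a sensor of Z-form nucleic acid, rose by 1.62, Gbp7, a guanylate-binding GTPase, by 1.19, Cxcl10, a chemokine that attracts T cells, by 1.35, and Iigp1, an immunity-related GTPase, by 1.01. The immunoproteasome subunits Psmb9 and Psmb8, which interferon induces, rose by 1.54 and 0.88, and the third such subunit, Psmb10, chosen after its value was seen, rose by 0.90. The 3 members not called were Oas2, Irf1 and Bst2, also chosen after their values were seen. The count was 23 to 27 of the members called higher in every alternative except the filter at a mean of 5 FPKM, which left 12 because fewer members were tested. Members of the guanylate-binding family have similar copies, so their values are uncertain where fragments could be split.

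The upstream sequences of 3 of the named interferon genes are shown because these genes rose together and share a short element. The element searched was the core of the interferon-stimulated response element, GAAANNGAAA, on both strands, in the 250 bases before the RefSeq start (GRCm38.p6), with overlapping matches allowed. It was found in 10 of the 19 called interferon genes with an entry in the RefSeq promoter table. The share was 3.46% of the 27025 genes of that table and 3.11% of the 7326 loci tested with an entry. The list was written from known interferon-stimulated genes, so its share is a description of the list and not a result of these data. A match is a description of the letters and not of a bound site, and Zbp1 and Iigp1 had no entry. Ifit1 is at chr19:34640639-34640888 on the plus strand, Gbp7 at chr3:142530086-142530335 on the plus strand and Cxcl10 at chr5:92348890-92349139 on the minus strand. Each is written 5′ to 3′ on the gene's strand and ends at the base before the start, with matches in capitals.
Ifit1: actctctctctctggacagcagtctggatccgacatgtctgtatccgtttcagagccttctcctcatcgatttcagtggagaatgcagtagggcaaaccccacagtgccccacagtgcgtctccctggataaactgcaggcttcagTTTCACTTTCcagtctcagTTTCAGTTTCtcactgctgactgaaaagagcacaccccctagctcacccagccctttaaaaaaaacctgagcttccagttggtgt
Gbp7: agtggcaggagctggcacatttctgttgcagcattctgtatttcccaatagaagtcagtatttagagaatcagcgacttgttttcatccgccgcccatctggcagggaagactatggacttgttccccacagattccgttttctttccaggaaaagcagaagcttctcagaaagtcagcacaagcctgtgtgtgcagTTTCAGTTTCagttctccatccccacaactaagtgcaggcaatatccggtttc
Cxcl10: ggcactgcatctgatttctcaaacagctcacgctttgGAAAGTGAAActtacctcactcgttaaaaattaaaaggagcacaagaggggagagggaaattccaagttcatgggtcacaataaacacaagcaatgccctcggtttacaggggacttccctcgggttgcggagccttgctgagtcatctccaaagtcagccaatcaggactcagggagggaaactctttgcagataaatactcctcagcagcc
Ifit1 held 2 matches, the nearer with its last base 76 bases before the start, Gbp7 held 1 at 44 bases and Cxcl10 held 1 at 204 bases.

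Part of the acute phase genes of the hepatocyte rose. Of 29 tested members 13 were called higher and 0 lower, against 10.1% and 6.19% of all loci, with a median change of 0.46. The higher count was 8 without both libraries with pancreas transcripts. Steap4, a metalloreductase induced by cytokines, was at 12.8, 12.8 and 14.9 FPKM on chow and at 77.1, 91.0 and 88.8 FPKM on high fat, a change of 2.58 ± 0.25 (adjusted p = 4.45e-06, limma). Saa4, a constitutive serum amyloid A, was at 68.9, 58.5 and 60.2 FPKM on chow and at 251, 336 and 348 FPKM on high fat, a change of 2.29 ± 0.32 (adjusted p = 1.18e-04). Lrg1, a leucine-rich plasma glycoprotein, rose by 1.19 and Itih4, a heavy chain of the inter-alpha-inhibitor family, by 1.25. The cytokine-induced serum amyloid Saa1 did not pass the test: it was at 956, 2137 and 618 FPKM on chow and at 1563, 1542 and 1213 FPKM on high fat (0.40 ± 0.81, adjusted p = 0.782). Chow 2 held the highest Saa1 value of the 6, as it did the highest chow value of Lcn2, and Saa1 has a near-identical copy. Among chemokines and cytokines 7 of 21 tested members were called higher, against 10.1% of all loci. Called lower was 1 (Mif, chosen after its value was seen), against 6.19%. The lower count was 0 without both libraries with pancreas transcripts. The higher count was 4 without high fat 2 and 4 when only the 2 groups were fitted. Cxcl1, which attracts neutrophils, was at 5.03, 1.25 and 2.59 FPKM on chow and at 22.2, 24.5 and 31.8 FPKM on high fat, a change of 2.88 ± 0.42 (adjusted p = 1.84e-04, limma). Ccl2, which recruits monocytes, rose by 1.06 (not called with a pseudocount of 0.01, adjusted p = 0.0735), from 0.119 to 0.829 FPKM on chow to 1.37 to 3.21 FPKM on high fat, and Il18, a cytokine matured by inflammasomes, rose by 0.73.

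Complement and coagulation genes, made mostly by hepatocytes, gave smaller rises. Of 28 tested complement members 9 were called higher and 0 lower (median 0.35), and of 27 coagulation members 9 were higher and 1 lower (median 0.25). Over all loci 10.1% were called higher and 6.19% lower. Without both libraries with pancreas transcripts the medians were 0.37 for complement and 0.28 for coagulation. The complement count was 3 without chow 1, 5 without chow 3, 5 without high fat 3, 4 to 5 with the clock covariate, quantile normalization or only the 2 groups fitted, and 2 without both libraries with pancreas transcripts. The coagulation count was 4 without chow 3, 5 without high fat 2, 5 without high fat 3, 4 to 5 with the clock covariate, size factors, quantile normalization or only the 2 groups fitted, and 2 without both libraries with pancreas transcripts. C4bp, a plasma inhibitor of complement, was at 181, 206 and 170 FPKM on chow and at 320, 339 and 338 FPKM on high fat, a change of 0.84 ± 0.12 (adjusted p = 2.02e-04). Serpina10, an inhibitor of factor Xa, was at 65.4, 79.1 and 72.0 FPKM on chow and at 132, 156 and 144 FPKM on high fat, a change of 0.99 ± 0.14 (adjusted p = 1.17e-04, limma). Factor XI, encoded by F11, rose by 0.63. The calls of C4bp, Serpina10 and F11 held in all 6 fits that left out 1 control library.

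Macrophage transcripts were higher in bulk liver RNA, in which more cells of a type and more RNA per cell cannot be told apart. The 19 Kupffer cell and macrophage markers summed to 285 to 433 FPKM on chow and to 526 to 614 FPKM on high fat. Of the 19 markers 12 were called higher and 0 lower (median 0.59), against 10.1% and 6.19% of all loci. Without both libraries with pancreas transcripts the median was 0.71. The count depended on single libraries. It was 3 without chow 1, 6 without chow 3, 4 without high fat 2 and 6 without high fat 3, and 5 to 7 with no filter, with the clock covariate, with only the 2 groups fitted or without both libraries with pancreas transcripts. Mpeg1, the pore-forming protein perforin-2 of macrophages, was at 8.16, 10.2 and 12.1 FPKM on chow and at 26.9, 30.1 and 27.1 FPKM on high fat, a change of 1.39 ± 0.18 (adjusted p = 5.78e-05, limma). Clec4f, a lectin found on mouse Kupffer cells, was at 26.1, 32.7 and 28.6 FPKM on chow and at 45.2, 51.5 and 52.0 FPKM on high fat, a change of 0.75 ± 0.13 (adjusted p = 9.60e-04). Fcna, the macrophage lectin ficolin A, rose by 0.57. The calls of Mpeg1, Clec4f and Fcna held in all 6 fits that left out 1 control library and with the clock covariate. Of 15 tested markers of lipid-associated macrophages 3 were called higher (Tyrobp, Ctss and Ctsb), of which Ctsb, a lysosomal protease, held in all 6 such fits (0.48 ± 0.10). Tyrobp was lost without chow 1 or high fat 2 and Ctss without chow 1, chow 3, high fat 2 or high fat 3, with the clock covariate (0.0703) and without both libraries with pancreas transcripts (0.0851). Of 24 tested stellate cell and collagen genes 3 were called higher against 10.1% of all loci. They were Hgf, Tgfbi and Lrat, by 0.49 to 0.52, and 1 was called with the clock covariate or without both libraries with pancreas transcripts. Of 18 sinusoidal endothelial genes 1 was called higher, Cdh5, lost without both libraries with pancreas transcripts (0.142) and with the clock covariate (0.0695). Lrat, the enzyme that esterifies retinol in stellate cells, held in all 6 such fits and had an adjusted p of 0.0596 with the clock covariate. Hgf lost the call in 5 of the 6 (all but high fat 1), Tgfbi in 4 (without chow 1, chow 3, high fat 1 or high fat 3) and Cdh5 in the same 4.

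**Figure D4:**
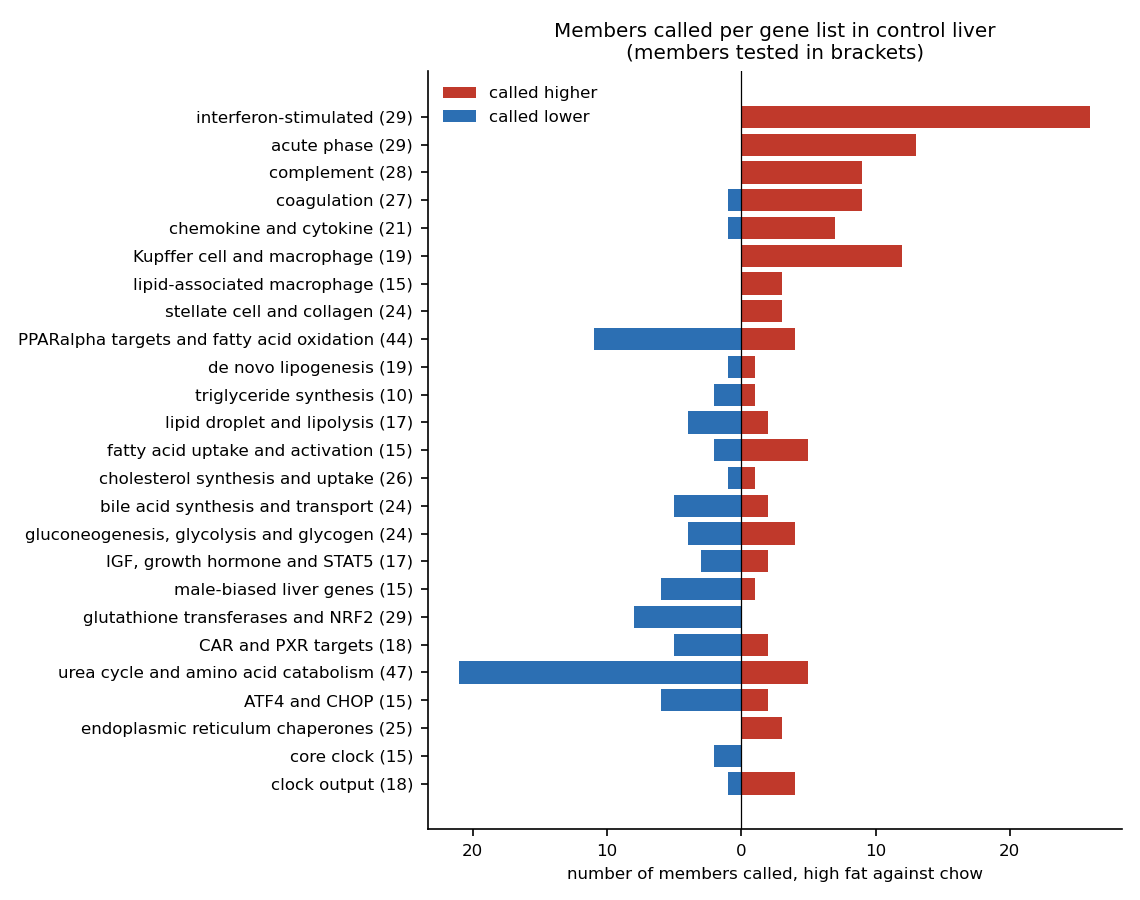
Number of members called higher (red, to the right) and called lower (blue, to the left) on the high fat diet for 25 gene lists in control liver, with the members tested in brackets. Interferon-stimulated genes gave 26 of 29 higher and urea cycle and amino acid catabolism genes 21 of 47 lower.

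Part of the genes of fatty acid oxidation and PPARalpha response fell. Of 44 tested members 11 were called lower and 4 higher, with a median of -0.17, against 6.19% of all loci lower and 10.1% higher. The share of rises was near that of all loci. The lower count was 7 without chow 3, 7 without high fat 2, 16 to 19 with size factors, quantile normalization, array weights or the length trend removed. The members that fell were the omega-hydroxylases Cyp4a12b, Cyp4a12a, Cyp4a14 and Cyp4a31, the acyl-CoA thioesterases Acot1 and Acot2, the peroxisomal enzymes Ehhadh and Acaa1b, and Crat, Pdk4 and Creb3l3. Of these Cyp4a12a, Acaa1b, Crat, Pdk4 and Creb3l3 were named after their values were seen. Cyp4a14, an omega-hydroxylase, was at 1966, 2620 and 2513 FPKM on chow and at 572, 276 and 686 FPKM on high fat. The diets did not overlap, and the change was -2.30 ± 0.34 (adjusted p = 1.96e-04, limma). Ehhadh, the bifunctional enzyme of peroxisomal oxidation, was at 577, 646 and 812 FPKM on chow and at 159, 133 and 166 FPKM on high fat, a change of -2.13 ± 0.35 (adjusted p = 4.75e-04). Acot1, a cytosolic acyl-CoA thioesterase, was at 84.7, 98.5 and 96.8 FPKM on chow and at 30.8, 23.3 and 29.3 FPKM on high fat, a change of -1.72 ± 0.19 (adjusted p = 1.45e-05). The copies Cyp4a31 and Acot2 fell by 1.73 and 0.65, and fragments shared among Cyp4a or Acot copies may have been split between them. The call of Acot2 ended with the clock covariate (adjusted p = 0.0800). The members that rose were Vnn1, a pantetheinase, by 0.86, Hadh by 0.64 and Ucp2 by 0.78, the last pair chosen after their values were seen, and Ppara itself by 0.36. The Ppara call ended in 5 of the 6 fits that left out 1 control library, without chow 1, 2 or 3 and high fat 1 or 3 (adjusted p 0.0536 to 0.115, limma), and with size factors (0.0626), quantile normalization (0.0619), the clock covariate (0.159) or without both libraries with pancreas transcripts (0.132). Cpt1a, the carnitine palmitoyltransferase of mitochondrial import, was at 133, 132 and 150 FPKM on chow and at 129, 114 and 134 FPKM on high fat (-0.14 ± 0.17, adjusted p = 0.621), and its diets overlapped. Fgf21, a fasting hormone of the liver, was at 8.84, 8.21 and 11.5 FPKM on chow and at 6.29, 10.4 and 15.4 FPKM on high fat (0.09 ± 0.44, adjusted p = 0.920).

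Of the genes of fatty acid uptake and binding Cd36 and Fabp2 rose, and 17 of 19 genes of lipogenesis did not pass the test. Over all loci 10.1% were called higher and 6.19% lower. Of 15 tested genes of uptake and activation 5 were called higher (Cd36, Fabp2, Acsm1, Pparg and Acsm3) and 2 lower (Slc27a1 and Acsl1, chosen after their values were seen). The higher count was 3 with the clock covariate and 3 without both libraries with pancreas transcripts. The lower count was 0 without chow 1, chow 2, chow 3, high fat 2 or high fat 3. Cd36, a fatty acid translocase, was at 16.0, 16.1 and 19.5 FPKM on chow and at 62.1, 40.5 and 48.0 FPKM on high fat, a change of 1.47 ± 0.23 (adjusted p = 3.47e-04, limma). Fabp2, a fatty acid binding protein, rose by 1.13 and Acsm1, a medium-chain acyl-CoA synthetase, by 0.73. Of 19 tested genes of lipogenesis 1 was called higher and 1 lower. Srebf1, the gene of SREBP-1c, was at 10.8, 7.03 and 7.92 FPKM on chow and at 25.9, 24.0 and 39.6 FPKM on high fat, a change of 1.67 ± 0.30 (adjusted p = 0.00110). Fasn, fatty acid synthase, was at 10.1, 8.61 and 6.68 FPKM on chow and at 9.92, 9.89 and 10.4 FPKM on high fat (0.24 ± 0.18, adjusted p = 0.369). Scd1, the stearoyl-CoA desaturase, was at 417, 315 and 458 FPKM on chow and at 964, 398 and 597 FPKM on high fat (0.64 ± 0.73, adjusted p = 0.592), and high fat 1 alone stood apart. The called fall was that of Acacb, the acetyl-CoA carboxylase of mitochondria (-0.69 ± 0.23, adjusted p = 0.0432), which was lost without chow 1, chow 2, high fat 2 or high fat 3 (0.118 to 0.154) and with the clock covariate (0.351).

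Of 10 tested genes of triglyceride synthesis 2 were called lower (Dgat1 and Agpat6) and 1 higher (Mogat1), and of 17 genes of the lipid droplet and lipolysis 4 were called lower and 2 higher (Fitm1 and, chosen after its value was seen, Plin3). The shares of all loci were 6.19% lower and 10.1% higher. The call of Mogat1 was lost without chow 1, chow 3, high fat 1 or high fat 2, and also with the clock covariate or without both libraries with pancreas transcripts. Droplet genes called higher were 0 without chow 2, chow 3 or both libraries with pancreas transcripts, and 1 without high fat 1 or high fat 3. The lower droplet count was 1 without chow 3 or high fat 2, 1 with the clock covariate and 1 without both libraries with pancreas transcripts. Dgat1, which makes triglyceride from diacylglycerol, was at 16.6, 17.4 and 16.8 FPKM on chow and at 12.8, 9.69 and 10.8 FPKM on high fat, a change of -0.57 ± 0.10 (adjusted p = 0.00110, limma). Agpat6, now named Gpat4, fell by 0.65, and Pnpla2, the lipase ATGL, was at 45.7, 51.9 and 55.8 FPKM on chow and at 28.2, 22.3 and 31.2 FPKM on high fat, a change of -0.89 ± 0.19 (adjusted p = 0.00328). Those 3 calls held in all 6 fits that left out 1 control library. Plin2, the main droplet coat protein of hepatocytes, was at 417, 353 and 416 FPKM on chow and at 333, 328 and 280 FPKM on high fat (-0.33 ± 0.18, adjusted p = 0.210). The droplet proteins Cidea and Cidec differed among the high fat libraries: Cidea was at 6.97, 0.317 and 1.13 FPKM and Cidec at 14.5, 5.03 and 4.33 FPKM, in each case highest in high fat 1. On chow Cidea was at 0.112 to 0.474 FPKM and Cidec at 11.3 to 17.2 FPKM, and neither was called (adjusted p = 0.188 and 0.119). Pparg, which drives lipid storage genes, was higher by 0.66 ± 0.20 (adjusted p = 0.0284), and the call was lost without chow 3, high fat 1 or high fat 3 (0.141, 0.110 and 0.0913), with the clock covariate (0.133), when only the 2 groups were fitted (0.0971) and without both libraries with pancreas transcripts (0.328).

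Sterol genes moved little, and the bile acid enzymes Cyp8b1 and Cyp7a1 moved in opposite directions. Of 26 tested cholesterol genes 1 was called higher (Sc5d) and 1 lower (Hsd17b7), and both calls were lost in 5 or more of the 6 fits that left out 1 control library, with the clock covariate and without both libraries with pancreas transcripts. Abca1, the cholesterol efflux pump, rose by 0.54 ± 0.13 (adjusted p = 0.00822). Over all loci 10.1% were called higher and 6.19% lower. Of 24 tested bile acid genes 2 were called higher (Cyp7a1 and Slco1b2) and 5 lower (Slco1a4, Cyp8b1, Cyp7b1, Abcb4 and Cyp27a1, the last pair chosen after their values were seen). The lower count was 3 without chow 1, chow 2, chow 3 or high fat 2, 2 with the clock covariate and 2 without both libraries with pancreas transcripts. Cyp8b1, the 12alpha-hydroxylase that sets the share of cholic acid, was at 370, 368 and 351 FPKM on chow and at 201, 152 and 137 FPKM on high fat, a change of -1.17 ± 0.27 (adjusted p = 0.00677), with 0.0659 with the clock covariate. Cyp7b1, of the alternative pathway, fell by 0.87, with an adjusted p of 0.0576 without both libraries with pancreas transcripts. Cyp7a1, the rate-limiting enzyme of the classical pathway, was at 15.9, 17.7 and 27.8 FPKM on chow and at 42.8, 52.7 and 42.2 FPKM on high fat, a change of 1.16 ± 0.34 (adjusted p = 0.0255, limma). The Cyp7a1 call was lost without chow 1, chow 2, high fat 1 or high fat 2 (0.0946, 0.0817, 0.0530 and 0.0900). The uptake transporter Slco1b2 rose by 0.77 and Slco1a4 fell by 1.24. Among apolipoprotein and VLDL genes, Lrp1, a remnant receptor, rose by 0.84 and Apom, a carrier of sphingosine 1-phosphate, fell by 0.66.

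The gluconeogenic enzymes G6pc and Pck1 were lower on the high fat diet. G6pc, glucose-6-phosphatase, was at 222, 211 and 169 FPKM on chow and at 81.9, 69.8 and 75.9 FPKM on high fat, a change of -1.39 ± 0.23 (adjusted p = 5.48e-04). Pck1, phosphoenolpyruvate carboxykinase, was at 1691, 1566 and 1322 FPKM on chow and at 654, 686 and 1017 FPKM on high fat, a change of -0.98 ± 0.23 (adjusted p = 0.00817), with 0.0704 with the clock covariate and 0.0565 without both libraries with pancreas transcripts. Of the 24 tested genes of glucose and glycogen metabolism 4 were called higher and 4 lower, against 10.1% and 6.19% of all loci. With the clock covariate 0 were higher and 1 was lower, by limma. Without both libraries with pancreas transcripts 1 was higher and 1 lower. Among the fits without 1 control library the higher count ran from 1 (without chow 3 or high fat 3) to 7 (without high fat 2), with 2 without chow 2 or high fat 1, and the lower count was 2 without chow 2, chow 3, high fat 1 or high fat 2. Irs2, the insulin receptor substrate that insulin represses, fell by 0.95 ± 0.22 (adjusted p = 0.00756, and 0.0792 with the clock covariate), Pik3r1, the regulatory subunit of PI 3-kinase, rose by 1.16 and Sik1, a salt-inducible kinase, fell by 1.42. Socs2, an inhibitor of growth hormone signalling that growth hormone itself induces, was at 8.05, 11.5 and 8.13 FPKM on chow and at 2.95, 2.49 and 3.47 FPKM on high fat, a change of -1.36 ± 0.29 (adjusted p = 0.00349, limma).

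Some genes with male-biased expression in mouse liver fell. Of 15 tested members 6 were called lower and 1 higher, against 6.19% and 10.1% of all loci, with a median of -0.65. In each of the 6 fits that left out 1 control library 6 were lower, and without both libraries with pancreas transcripts 4 were lower. Cyp2d9 was at 901, 848 and 606 FPKM on chow and at 387, 308 and 417 FPKM on high fat, a change of -1.07 ± 0.17 (adjusted p = 2.88e-04, limma). Elovl3, a fatty acid elongase, fell by 1.02 and Ugt2b38, a glucuronosyltransferase, by 1.71, while Nudt7, a peroxisomal CoA diphosphatase, rose by 1.46. Of the 6 tested female-biased genes Cyp2b9 and Abcd2 were called higher, and the call of Abcd2 was lost without chow 2 (0.0511) and with the clock covariate (0.0748). Among 18 tested targets of the xenobiotic receptors CAR and PXR 2 were called higher and 5 lower, against 10.1% and 6.19% of all loci. Cyp2b9 and Cyp3a11 had the largest change in each direction, and Cyp3a25 fell by 1.05 ± 0.11. Of 29 tested glutathione transferase and NRF2 genes 8 were called lower and 0 higher, with a median of -0.05. That count was 5 without chow 2, chow 3 or high fat 2, and 4 without both libraries with pancreas transcripts. Gsta2 was at 10.2, 8.80 and 10.8 FPKM on chow and at 1.33, 1.39 and 2.82 FPKM on high fat, a change of -1.98 ± 0.24 (adjusted p = 3.39e-05, limma), and Ces2a, a carboxylesterase, fell by 1.51. Glutathione transferases have close copies, and fragments may have been split among them.

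Urea cycle and amino acid breakdown formed the largest group of falls. Of 47 tested members 21 were called lower and 5 higher, against 6.19% and 10.1% of all loci, with a median of -0.37. Without both libraries with pancreas transcripts the median was -0.36. The higher count was 1 to 3 in each fit without 1 control library other than high fat 2, 0 with the clock covariate and 0 without both libraries with pancreas transcripts. The lower count was 10 without chow 3, 12 without high fat 2, 8 with the clock covariate and 5 without both libraries with pancreas transcripts. Asl, the urea cycle enzyme argininosuccinate lyase, was at 662, 721 and 741 FPKM on chow and at 206, 213 and 258 FPKM on high fat, a change of -1.65 ± 0.20 (adjusted p = 3.00e-05, limma). Cth, which makes cysteine from cystathionine, was at 459, 511 and 610 FPKM on chow and at 185, 174 and 210 FPKM on high fat, a change of -1.46 ± 0.23 (adjusted p = 3.99e-04). Sdsl, a serine dehydratase, fell by 1.72, Tdo2, which opens the tryptophan ring, by 0.68, and Ahcy, which hydrolyses S-adenosylhomocysteine, by 0.66. The calls of Asl, Cth, Sdsl, Tdo2 and Ahcy held in every alternative planned for this comparison. Among 15 tested targets of the amino acid response factors ATF4 and CHOP 6 were called lower and 2 higher, and the lower count was 3 without chow 3, 1 without high fat 2, 2 with the clock covariate and 3 without both libraries with pancreas transcripts. The higher pair, Chac1 and Shmt2, were not called without chow 2, chow 3 or high fat 3 or with the clock covariate. Asns, asparagine synthetase, was at 3.31, 4.77 and 13.5 FPKM on chow and at 0.462, 0.356 and 2.28 FPKM on high fat, a change of -1.93 ± 0.48 (adjusted p = 0.0105), lost without chow 3 (0.0721) or high fat 2 (0.0542), with the clock covariate (0.0870) and without both libraries with pancreas transcripts (0.181). Of 25 tested chaperones of the endoplasmic reticulum 3 were called higher (Calr, Pdia3 and Canx, by 0.25 to 0.43) and 0 lower. Calr and Pdia3 lost the call in all 6 fits that left out 1 control library and Canx in all but that without high fat 2.

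Clock genes and genes of stress kinases were measured in the same libraries. Dbp, a clock output factor, was at 12.3, 7.82 and 8.59 FPKM on chow and at 24.3, 28.5 and 43.4 FPKM on high fat, a change of 1.63 ± 0.33 (adjusted p = 0.00283, limma). Arntl, the clock activator BMAL1, was at 4.79, 3.28 and 4.35 FPKM on chow and at 2.49, 0.973 and 0.981 FPKM on high fat, a change of -1.09 ± 0.28 (adjusted p = 0.0122), lost without high fat 2 (0.0598) and with the clock covariate (0.0828). Nr1d1, the clock repressor REV-ERBalpha, was at 24.4 to 36.1 FPKM on chow and at 27.7 to 38.5 FPKM on high fat and was not called, and Per2 was higher by 0.73 ± 0.28 (adjusted p = 0.0764). These genes entered the clock score, so their fits with the clock covariate are not independent of the score. The scores of the diets did not overlap, so diet and clock cannot be told apart here. The part of the clock in the other changes was not tested. Mapk8 was at 5.02, 5.77 and 4.76 FPKM on chow and at 4.12, 4.56 and 4.19 FPKM on high fat (-0.22 ± 0.11, adjusted p = 0.170), and Mapk9 was at 9.19 to 10.8 and 10.3 to 11.8 FPKM (0.14 ± 0.08, adjusted p = 0.283). Of 16 tested AP-1 and immediate early genes 0 were called higher and 3 lower, against 10.1% and 6.19% of all loci. The 3 were Gadd45b, Myc and Jund. Jund was at 56.0, 43.5 and 46.6 FPKM on chow and at 28.1, 24.2 and 30.3 FPKM on high fat, a change of -0.80 ± 0.16 (adjusted p = 0.00206), Gadd45b fell by 1.25, the call of Myc was lost without chow 2, chow 3, high fat 1 or high fat 2 and without both libraries with pancreas transcripts (0.231), and Jun differed by -0.46 ± 0.27 (adjusted p = 0.262).

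The same diets were compared in Jnk1 and in Jnk2 liver with the interaction of diet and genotype in the same limma fit. Mapk8 was at 1.84 to 1.98 FPKM in the 6 Jnk1 libraries against 4.12 to 5.77 in the 6 control libraries. Mapk9 was at 5.60 to 7.79 FPKM in the 6 Jnk2 libraries against 9.19 to 11.8. For JNK1, 0 of 10561 loci were called by limma, 545 had an unadjusted p under 0.05, and the smallest adjusted p was 0.516. High fat against chow called 1588 loci in Jnk1 liver (15%), and 900 loci were called with the same sign there and in control liver, 52.4% of those of control liver and 56.7% of those of Jnk1 liver, with 0 of opposite sign. For JNK2, the interaction was called at 1005 loci (9.52%), of which 653 (6.18%) were higher and 352 (3.33%) lower in the Jnk2 diet change than in that of control liver. That count was 509 without chow Jnk2 3, 569 without high fat control 2, 631 without chow control 3, 640 without chow control 2 and 401 without both control libraries with pancreas transcripts. The balance between directions depended on scaling: size factors gave 500 higher against 525 lower, and removal of the length trend gave 527 against 464. Spearman correlations of a library's deviation from the mean level with transcript length were -0.14, -0.25 and 0.20 in high fat Jnk2 1, 2 and 3. In chow Jnk2 1, 2 and 3 they were 0.30, 0.32 and 0.17. The control diet change and the interaction share the control libraries. High fat against chow called 2751 loci in Jnk2 liver (26%), and 581 were called with the same sign as in control liver, 33.8% of those of control liver and 21.1% of those of Jnk2 liver, while 72 had the opposite sign. Transcripts of the 14 exocrine pancreas genes were also held by libraries of these genotypes. They summed to 1294 FPKM in chow Jnk1 1, 95.8 FPKM in high fat Jnk1 2 and 278 FPKM in chow Jnk2 2. The fit without both control libraries with pancreas transcripts kept these libraries.

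The difference between Jnk2 and control liver was called in opposite directions on the PPARalpha and acute phase lists. Of 44 PPARalpha and oxidation genes, the diet change was called greater in Jnk2 than in control liver at 22 and smaller at 0 (medians -0.17 in control, 0.39 in Jnk2). Over all loci these shares were 6.18% greater and 3.33% smaller. Acot1 was at 68.1, 87.1 and 66.8 FPKM on chow and at 90.7, 114 and 143 FPKM on high fat in Jnk2 liver, a change of 0.63 against -1.72 in control liver (interaction 2.34 ± 0.27, adjusted p = 1.37e-04, limma). Plin2 was at 308, 283 and 249 FPKM on chow and at 475, 474 and 884 FPKM on high fat in Jnk2 liver, where high fat 3 was the high library. Cidec was at 16.1, 8.86 and 8.90 FPKM on chow and at 52.9, 50.1 and 146 FPKM on high fat in Jnk2 liver. The interactions were 1.40 ± 0.25 for Plin2 (adjusted p = 0.00362) and 3.50 ± 0.52 for Cidec (adjusted p = 6.92e-04, limma). Of 29 acute phase genes, the diet change was called lower in Jnk2 than in control liver at 18 and higher at 0 (medians 0.46 in control, -0.44 in Jnk2). The shares of all loci were 3.33% lower and 6.18% higher. Lcn2 was at 193, 52.1 and 15.8 FPKM on chow and at 80.9, 48.8 and 56.8 FPKM on high fat in Jnk2 liver, and the chow libraries spanned the high fat ones (interaction -3.21 ± 0.92, adjusted p = 0.0351). Steap4 and Cxcl1 had interactions of -1.97 ± 0.36 and -3.07 ± 0.60 (adjusted p = 0.00366 and 0.00549). Of 29 interferon-stimulated genes 4 had a smaller diet change in Jnk2 liver and 0 a greater one, against 3.33% and 6.18% of all loci. The interferon list was called higher at 26, 25 and 23 members in control, Jnk1 and Jnk2 liver, against 10.1%, 9.22% and 19.7% of all loci. Urea cycle and amino acid genes were called lower at 21, 24 and 19 of 47 members in control, Jnk1 and Jnk2 liver, against 6.19%, 5.81% and 6.39% of all loci. For these genes 0 of 47 interactions were called by limma in Jnk2 liver, and the medians were -0.37 in control and -0.26 in Jnk2 liver. Of 24 stellate cell and collagen genes 11 and of 18 sinusoidal endothelial genes 8 had a greater diet change in Jnk2 liver, against 6.18% of all loci.

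**Figure D5:**
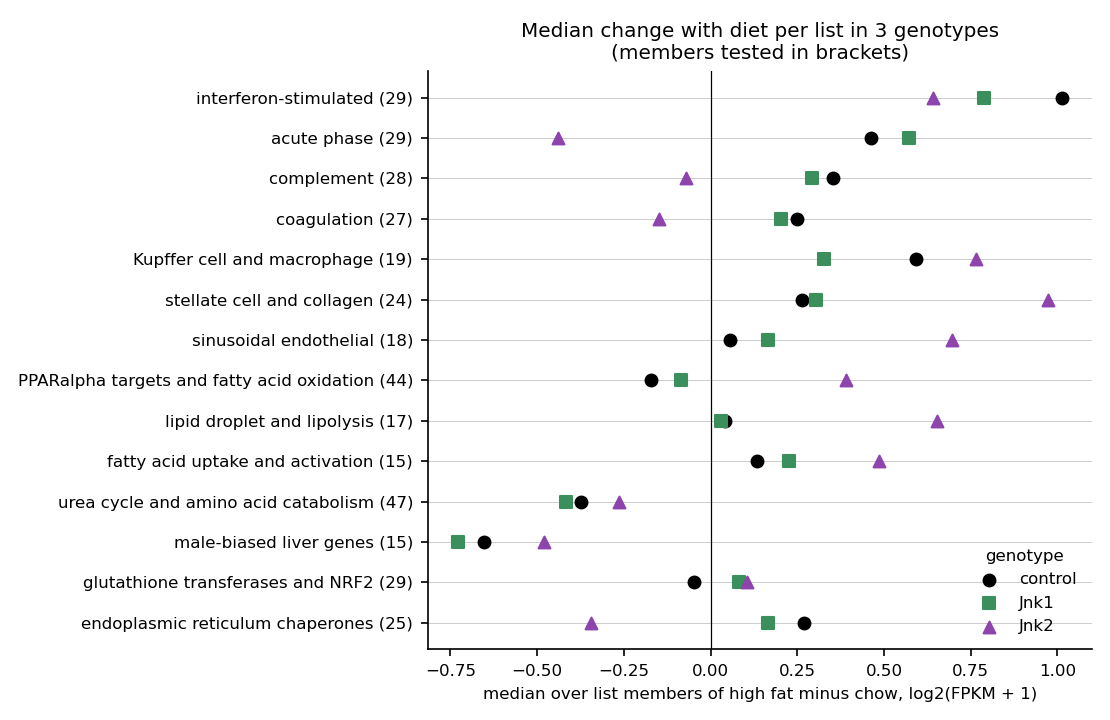
Median over the tested members of 14 gene lists of the difference of log2(FPKM + 1) between high fat and chow, in control (circles), Jnk1 (squares) and Jnk2 (triangles) liver. The acute phase median is 0.46 in control and -0.44 in Jnk2 liver, and the PPARalpha and fatty acid oxidation median is -0.17 and 0.39.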

How the data were processed

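Total liver RNA was extracted with the RNeasy kit, checked for integrity and sequenced with Illumina protocols, per the labels' protocols. The deposited values were FPKM per locus, which the authors made with TopHat, Cufflinks and Cuffdiff on mm10, per the submitters' processing notes; versions, strand setting and read counts are not given in the sources used here. FPKM without counts leaves the absolute depth unknown, so no counting interval is given. Of 31027 loci, 10561 with a name and a mean of at least 1 FPKM over all 24 libraries were tested, and no change is given for 6 loci with a value of 0 that is a failed estimate.

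Values were taken as log2(FPKM + 1) and fitted with limma 3.58.1 (R 4.3.3, trended prior) as 8 group means over all 24 libraries, which share 1 estimate of the spread (16 residual degrees of freedom), with Benjamini-Hochberg adjustment over all loci tested. With 3 libraries per diet an exact permutation test of 1 gene cannot reach the threshold. Groups came from the titles and genotype labels. The remaining steps used Python 3.11.15, and the fit was tested on simulated data. Alternatives were other pseudocounts, filters, scalings and weights, a replicate block, removal of a length trend, a clock score covariate, a fit of only the groups compared, the omission of each library, and, chosen after seeing the data, the omission of both control libraries with pancreas transcripts. The genes named were the called loci with the largest rises and falls whose diets did not overlap, up to 4 called members of each list by adjusted p, a panel given whether called or not, and the smallest adjusted p of each interaction; others are said to be chosen after their values were seen. The members and the gene lists were chosen with earlier results of these data known. Genes with near-identical copies and loci that overlap others are uncertain in their values. Promoter sequences are from RefSeq on GRCm38.p6. Results for a few genes are not reported here.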

Additional observations from a re-analysis of the deposited data

Results flagged for a closer look

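The diet effect differed between Jnk2 and control liver at 1005 loci by the limma interaction test. The named loci with the smallest adjusted p of that test, apart from Acot1, are given here with their FPKM; for Acot1 the interaction was 2.34 on the log2 scale, with the values given above.

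Mgll, monoacylglycerol lipase, was at 76.0, 72.2 and 76.8 FPKM on chow and at 73.4, 62.8 and 81.6 FPKM on high fat in control liver, and at 65.2, 63.8 and 55.3 FPKM and 145, 137 and 150 FPKM in Jnk2 liver. The control diets overlapped and the Jnk2 diets did not, and the interaction was 1.27 ± 0.14 (adjusted p = 7.50e-05, limma). Acot2, a mitochondrial acyl-CoA thioesterase, was at 10.2, 10.3 and 10.8 FPKM on chow and at 7.51, 6.01 and 5.52 FPKM on high fat in control liver, and at 8.58, 8.23 and 6.96 FPKM and 19.8, 18.6 and 28.2 FPKM in Jnk2 liver, an interaction of 2.01 ± 0.22 (adjusted p = 7.50e-05). The locus Rnase4/Ang, which holds a pair of secreted ribonuclease genes, was at 769, 864 and 859 FPKM on chow and at 1223, 1836 and 1402 FPKM on high fat in control liver, and at 1299, 1329 and 1309 FPKM and 635, 764 and 679 FPKM in Jnk2 liver, an interaction of -1.75 ± 0.20 (adjusted p = 1.37e-04). It rose in control liver and fell in Jnk2 liver, with no overlap of diets in either. Icam2, an endothelial adhesion molecule, was at 2.90, 2.84 and 2.43 FPKM on chow and at 1.82, 1.56 and 2.04 FPKM on high fat in control liver, and at 1.29, 1.72 and 1.26 FPKM and 3.60, 3.75 and 3.76 FPKM in Jnk2 liver, an interaction of 1.37 ± 0.17 (adjusted p = 1.55e-04, limma).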

How the results depend on the processing

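Of the 161 named genes called in control liver, 87 kept the call in every alternative that tested them, and none of the 161 changed direction. The count of loci called, 1717, became 3067 with array weights, 831 with the clock covariate and 682 without both libraries with pancreas transcripts, and ran from 1050 to 1619 when 1 control library was left out. Loci called higher became 1945, 504 and 407 under the same settings, with a range of 653 to 888. Loci called lower became 1058 with size factors, 1072 with quantile normalization, 1122 with array weights, 1126 with the length trend removed, 327 with the clock covariate, 400 when only the groups compared were fitted and 275 without both libraries with pancreas transcripts, with a range of 311 to 731. For the Jnk1 interaction 1 locus was called when only the groups compared were fitted, in the higher direction, and 0 to 1 when 1 library was left out: 1 higher without chow control 2 or high fat control 3, and 1 lower without high fat control 2. For the Jnk2 interaction the count became 2375 with array weights and 655 when only the groups compared were fitted. It became 401 without both control libraries with pancreas transcripts, a fit that kept chow Jnk2 2, which also held them. When 1 library was left out the count ran from 509 to 1337. Its higher calls became 1488, 413 and 263, with a range of 307 to 908. Its lower calls became 587 with quantile normalization, 887 with array weights and 138 without both control libraries with pancreas transcripts, with a range of 202 to 429. The cause of these differences was not tested.

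Genes that were not called changed sign as follows, on the log2 scale. With the clock covariate Scd1 was at -0.33, Fasn at -0.020 and Cpt1a at 0.043. With array weights Fgf21 was at -0.19, and with the length trend removed Fgf21 was at -0.020. Without both libraries with pancreas transcripts Saa1 was at -0.064. When 1 control library was left out, Fgf21 ran from -0.19 (without high fat 3) to 0.40, Nr1d1 from -0.077 (without chow 2) to 0.20 and Mgll from -0.14 to 0.046 (without high fat 2). The replicate block gave 1633 calls. The correlations of same-numbered chow and high fat libraries were -0.15, 0.20 and -0.09, and those of differently numbered libraries ranged from -0.17 to 0.29. With 3 libraries per group these correlations cannot settle whether the replicate numbers paired the samples.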
